A study of Mus musculus with 9 samples.

Results

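The nuclear genes for the subunits of oxidative phosphorylation were described in single inhibitory neurons of the mouse central amygdala. The set was every gene of the deposited count table with at least 1 count whose symbol starts with Nduf, Uqcr, Atp5, Cycs, one of Sdha to Sdhd or one of Cox4 to Cox8. This gave 94 genes of the 22601 in the table. The rule used no measured level beyond the 1 count, though it was chosen with earlier results of these data known. They were 36 genes of complex I, 4 of complex II, 8 of complex III, the cytochrome c gene Cycs, 18 of complex IV and 15 of complex V. The other 12 share a symbol stem but are assembly factors, related genes or a pseudogene (Cox7a2l, Ndufaf1, Ndufaf2, Ndufaf3, Ndufaf4, Sdhaf1, Sdhaf2, Atp5s, Atp5sl, Cox4nb, Atp5l2 and Atp5l-ps1), which leaves 82 subunit genes. Ndufa4 and its relative Ndufa4l2, named for complex I, were counted with complex IV, where the NDUFA4 protein is now placed.

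The series profiled cells of the central amygdala of WT B6 mice, which were dissected from acute slices under the microscope, dissociated and pooled. Its 9 samples form a single untreated group, and the deposited cell table gives each of them 1 of 3 animal numbers and 1 of 3 date fields. All comparisons are therefore between classes of cells within the same samples, and they describe how the neurons differ. The labels used here give no age, sex or count of animals, so the p-values below measure only the spread between these samples.

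Oxidative phosphorylation is the last stage of respiration. Complex I takes electrons from NADH and complex II takes them from succinate, both hand them to ubiquinone, and complex III passes them through cytochrome c to complex IV, which reduces oxygen. The proton gradient built on the way drives ATP synthase, complex V. Most subunits are encoded in the nucleus and a few in mitochondrial DNA. Neurons spend much of the ATP made in this way on restoring ion gradients after electrical activity. The 4 genes that define the classes here are Prkcd, which encodes protein kinase C delta, Sst, which encodes the neuropeptide somatostatin, and Isl1 and Nr2f2, which encode transcription factors.

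The promoters of several genes whose counts differed between classes are shown, since these are the members described at length below. The windows come from the RefSeq annotation of GRCm38.p6, run 5′ to 3′ from 250 bases before to 50 bases after the annotated start, and have capitals where a searched motif matched. The authors counted on NCBIM37, so these coordinates serve the sequences alone. Ndufs4 lies at chr13:114388045-114388344 on the minus strand and Ndufa9 at chr6:126849095-126849394 on the minus strand, and the capitals in both mark the motif of YY1, 11 bases matched in full. Cox6a1 lies at chr5:115348909-115349208, Atp5o at chr16:91931581-91931880 and Atp5g3 at chr2:73911277-73911576, all on the minus strand, and their capitals mark the motif of NRF1, 10 bases with the sixth left free. In Atp5g3 the first run of capitals is the reverse strand of the ERR motif TCAAGGTCA.
Ndufs4: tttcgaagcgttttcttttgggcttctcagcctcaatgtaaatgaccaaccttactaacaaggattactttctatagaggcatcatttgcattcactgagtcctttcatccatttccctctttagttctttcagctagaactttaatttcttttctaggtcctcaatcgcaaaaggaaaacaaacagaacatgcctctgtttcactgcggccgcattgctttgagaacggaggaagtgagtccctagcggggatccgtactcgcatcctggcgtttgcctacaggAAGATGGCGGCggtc
Ndufa9: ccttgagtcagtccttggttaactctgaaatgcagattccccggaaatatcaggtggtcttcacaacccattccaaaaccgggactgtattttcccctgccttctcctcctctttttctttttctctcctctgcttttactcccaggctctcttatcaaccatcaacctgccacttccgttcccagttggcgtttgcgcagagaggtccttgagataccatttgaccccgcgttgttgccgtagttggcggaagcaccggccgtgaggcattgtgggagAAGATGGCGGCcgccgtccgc
Cox6a1: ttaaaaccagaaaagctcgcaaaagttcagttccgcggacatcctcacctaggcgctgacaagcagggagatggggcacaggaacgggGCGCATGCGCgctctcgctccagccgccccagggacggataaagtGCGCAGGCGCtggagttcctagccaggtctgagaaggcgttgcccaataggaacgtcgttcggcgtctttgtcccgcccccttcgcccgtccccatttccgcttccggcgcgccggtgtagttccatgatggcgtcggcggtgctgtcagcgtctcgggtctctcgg
Atp5o: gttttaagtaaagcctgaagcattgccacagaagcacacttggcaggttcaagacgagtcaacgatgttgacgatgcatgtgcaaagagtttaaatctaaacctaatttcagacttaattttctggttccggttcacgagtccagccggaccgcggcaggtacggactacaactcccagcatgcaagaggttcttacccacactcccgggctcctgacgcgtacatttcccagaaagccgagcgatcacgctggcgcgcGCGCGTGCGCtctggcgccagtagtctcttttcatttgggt
Atp5g3: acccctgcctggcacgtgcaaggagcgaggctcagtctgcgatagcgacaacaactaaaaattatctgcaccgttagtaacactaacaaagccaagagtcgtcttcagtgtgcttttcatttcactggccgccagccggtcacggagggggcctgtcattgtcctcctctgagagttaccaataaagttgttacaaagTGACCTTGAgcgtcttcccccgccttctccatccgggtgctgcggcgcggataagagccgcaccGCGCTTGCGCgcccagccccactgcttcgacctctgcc

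A window was listed for 76 of the 94 members, 82 windows in all, and both strands were searched. NRF1, a transcription factor known for binding the promoters of nuclear respiratory genes, had its motif in 19 of the 82 member windows (23.2%), against 1512 of all 32851 windows of the same length (4.6%). The windows with it belonged to 18 members, of which 7 were genes of complex I, 2 of complex II, 1 of complex III, 1 of complex IV, 6 of complex V and 1 of the other group. The YY1 motif was in 7.32% of the member windows and 0.633% of all windows, and 4 of the 5 members that held it were genes of complex I. The ETS motif CCGGAAGT was in 6.1% of the member windows, against 3.89% of all windows, and the ERR motif in 2.44%, against 0.423%. These are matches of letters and no binding was measured. Among the other members that passed a test below, Sdhb, Atp5e and Uqcrfs1 held none of these letters in their windows, and no window was listed for Ndufb9.

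The samples held 829 cells, of which 810 (82 to 95 per sample) were inhibitory neurons, that is, cells with a GABAergic marker (Gad1, Gad2, Slc32a1) and no glutamatergic one (Slc17a6, Slc17a7). A cell was called positive for a gene at 1 or more counts per 10000 of its gene counts. Gad1 and Gad2, the genes of the enzymes that make GABA, were positive in 726 and 769 neurons. A neuron had a median of 126576 gene counts, and a sample's gene counts summed to between 8522750 and 22730327. The 829 cells carry 376 barcodes, of which 368 occur in more than 1 sample, so cells were told apart by sample and barcode together. Of the markers of other cells, those of oligodendrocytes, the myelin-forming glia, and of interneurons had medians over samples near 1 count per 10000. The 6 oligodendrocyte genes summed to a median of 1.26 per 10000, and to 16.1 in the highest sample. The 5 interneuron genes summed to a median of 0.883, and to 8.56 in the highest, with 128 of 810 neurons positive. The 3 mural cell genes had a median of 0.00649 and reached 5.1 in 1 sample. Mbp, the gene of myelin basic protein, was positive in 210 neurons.

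The members took 3.969% of all gene counts. Their share per 10000 gene counts of a cell, averaged over a sample's neurons, was 390.4 ± 23.2 (SD, n = 9), with the lowest sample at 352.3 and the highest at 424.0. Single neurons ran more widely, with 90% of them between 287.5 and 493.4. The samples of the first date field lay between 352.3 and 379.9, those of the second between 391.1 and 424.0 and those of the third between 384.5 and 406.2. The samples of the first date field thus stood below all others, while the ranges of the 3 animal numbers overlapped. All class comparisons below are made within samples.

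Complex I took 148.9 ± 9.72 counts per 10000 (SD, n = 9) and complex IV 101.1 ± 8.27. Complex V took 91.9 ± 3.63, complex III 27.9 ± 2.29, complex II 11.5 ± 0.708 and cytochrome c 0.319 ± 0.0775. These sums follow the number and length of the genes as well as their transcripts, so they describe how the counts were spread over the set and do not rank the complexes. The 8 mitochondrially encoded subunit genes in the table took 276.7 ± 30.2 per 10000. With every neuron thinned to 50000 gene counts (788 neurons kept, 22 too shallow), the coefficient of variation across neurons was 14.2% for all members, against 2.26% from counting alone. It was 16.6% for complex I, against 3.65%, and 19.3% for complex V, against 4.68%. These counting values take each count as an independent molecule, which the sources do not state. Ndufaf3 had 15396 counts but was detected in 576 of 810 neurons, fewer than such counting gives at an equal level in all neurons. Where the counts hold PCR copies, counting error is larger than this, so the excess is no measure of differences between neurons.

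Within complex I the members with the most counts were Ndufb9 and Ndufb10, accessory subunits of the membrane arm, and Ndufv2, a subunit of the NADH-binding module. Ndufb9 had 970.1 to 1233 CPM, counts of a sample's summed neurons scaled to a fixed library size, with a median of 1081. Ndufb10 had 903.3 to 1197 CPM and Ndufv2 893.3 to 969.1 CPM. Of the core subunits, Ndufv1, which carries the NADH site, had 386.5 ± 18.8 CPM (SD, n = 9) and Ndufs1, which carries iron-sulphur clusters, 116.3 ± 19.0 CPM. These core subunits were detected in 92.7% and 74.9% of the neurons. No count here is divided by gene length, so the values compare samples and classes for 1 gene at a time.

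In complex II, Sdhb, the iron-sulphur subunit, had 475.6 ± 38.9 CPM (SD, n = 9), Sdha, the flavoprotein that oxidises succinate, 442.8 ± 34.4 CPM and Sdhd, a membrane anchor, 148.9 ± 11.5 CPM. In complex III the most counts fell on Uqcrq (737.7 ± 127 CPM), Uqcrh (414.6 ± 42.9 CPM) and Uqcr10 (382.4 ± 91.3 CPM), all small subunits. The core protein gene Uqcrc1 had 359.3 ± 30.5 CPM and Uqcrfs1, the Rieske iron-sulphur protein gene, 341.8 ± 48.7 CPM. Cycs had 31.7 ± 6.93 CPM and was detected in 68.2% of neurons, but it has 4 near-identical gene copies, 3 of them pseudogenes, among which reads may have been split or lost. Its values are therefore uncertain.

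In complex IV the most counts fell on Cox4i1 (2718 ± 164 CPM, SD, n = 9), Ndufa4 (1649 ± 149 CPM) and Cox8a (1129 ± 168 CPM), and Cox5a, a regulatory subunit gene, had 1069 ± 102 CPM. In complex V they fell on Atp5d, the delta subunit (1468 ± 123 CPM), Atp5g3, an isoform gene of the c-ring subunit (1273 ± 69.7 CPM), and Atp5a1, the alpha subunit (1260 ± 56.8 CPM). The catalytic beta subunit gene Atp5b had 958.9 ± 51.1 CPM and the gamma subunit gene Atp5c1 645.8 ± 32.2 CPM. Among the 12 other genes, Cox7a2l had 240.6 ± 13.4 CPM, Ndufaf3 133.6 ± 8.90 CPM and Atp5sl 92.9 ± 20.8 CPM. Over the 69 members with a mean of 100 CPM or more, the coefficient of variation between samples had a median of 9.44% and ran up to 34.6%, the value of Atp5k, a small membrane subunit gene of complex V. Ndufc1, Ndufa3 and Ndufa5, accessory subunits of complex I, followed with 26.1%, 25.5% and 25.5%.

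Several complex IV and V subunits exist as tissue-restricted isoforms, and of each such group the neurons used the common form in nearly all of their counts. Cox4i1 had 314238 counts in 808 of the 810 neurons, and Cox4i2, its lung-enriched partner, 4 counts in 1 neuron. Cox6a1 had 81528 counts in 804 neurons, and Cox6a2, the heart and muscle form, 203 counts in 8 neurons, with up to 67 in 1 of them. Cox7a2 had 84079 counts in 804 neurons, and Cox7a1, also a heart and muscle form, 208 counts in 26 neurons. The testis forms Cox6b2, Cox7b2 and Cox8c had 26 counts in 1 neuron, 266 counts in 13 neurons and 1 count in 1 neuron, while Cox6b1 had 98623 counts in 803 neurons and Cox8a 130062 counts in 808. Cox8b is not used here. Ndufa4 had 191078 counts in 807 neurons, and Ndufa4l2 16 counts in 10.

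The rarer forms, though few in counts, were spread over several samples. Over all 829 cells, the counts of Cox7a1, Ndufa4l2, Cox6a2 and Cox7b2 came from 8, 8, 5 and 7 of the 9 samples. Of the Cox7a1 counts, 45 were in 5 of the 76 Isl1-positive neurons and 163 in 21 of the 734 others. The c-ring subunit of complex V is encoded by 3 genes with the same mature product, of which Atp5g3 had 147969 counts, Atp5g1 6880 and Atp5g2 82. Atp5g1 and Atp5g2 have near-identical copies elsewhere in the genome, and how reads that match several genes were counted is not stated, so their counts are uncertain.

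A copy of this kind was looked for with every member. Of the 92 members with a coding sequence in the GENCODE M21 annotation, 67 had no other gene at 95% identity or more over at least 50% of that sequence, and 25 had at least 1. Atp5l had 8 (7 of them pseudogenes) and only 16.4 CPM, Atp5h 4, and Cox7c and Uqcrb 3 each. The median level was 225.9 CPM over the 24 members with 1 to 4 copies and 397.4 CPM over those with none. Cox7c had 41.7 CPM and Ndufb4, with 1 copy, 35.4 CPM. Levels of these genes are uncertain, and among the members that passed a test below only Atp5o had such a copy.

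Of the 4 marker classes, the Sst-positive neurons had the lowest share of member counts. They had 369.9 ± 28.1 member counts per 10000 (SD, n = 9 samples, 148 neurons), against 395.7 ± 22.1 in the other inhibitory neurons (662 neurons), with sample values of 324.6 to 405.8 in the Sst-positive and 355.5 to 427.3 in the other neurons. The share was lower in Sst-positive neurons in 8 of 9 samples, with a difference of -25.8 ± 17.2 per 10000 or -6.53% of the level of the others, although the ranges over samples overlapped. No test was made of these sums. With thinned counts the values were 371.7 and 396.3, lower in Sst-positive neurons in 9 of 9 samples. With cells positive for Mbp left out they were 375.4 and 398.0, and with the 4 class genes taken out of the denominator 371.1 and 395.9, each lower in 8 of 9. Within the 3 animal numbers the difference was -29.4, -36.4 and -11.7 per 10000, and within the 3 date fields -37.9, -28.0 and -11.6. The lower share was not particular to the members. Of the gene lists described further below, ribosomal proteins differed by -16.4%, antioxidant genes by -13.6% and further ATP synthase parts by -12.9%. Regulators differed by -11.3%, assembly factors by -11.0%, the mitochondrially encoded subunits by -10.4% and carriers by -6.65%. The citrate cycle differed by -2.04% and glycolysis, in the other direction, by 5.08%.

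**Figure D1:**
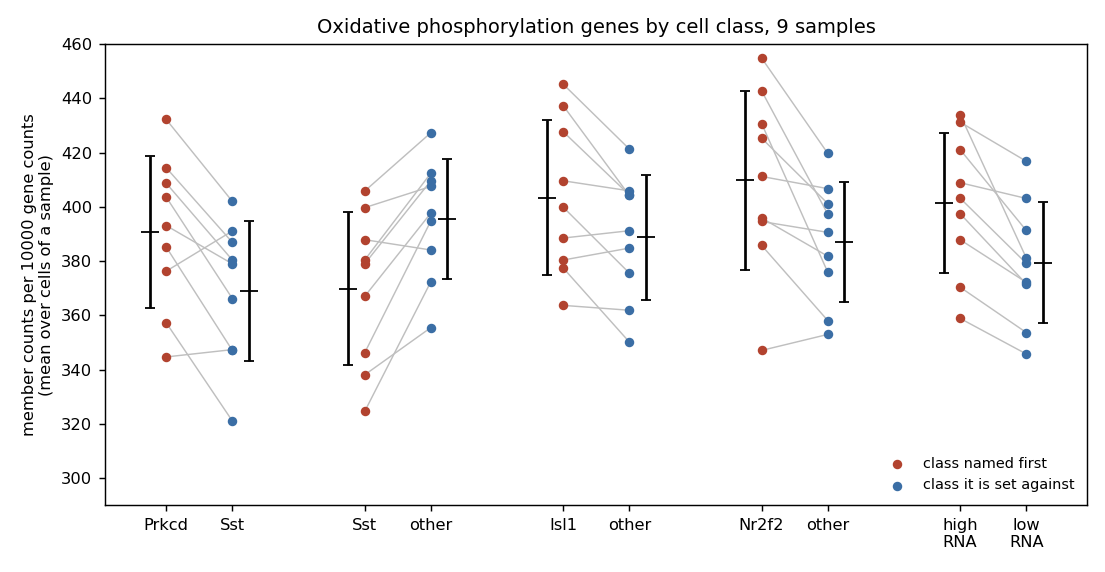
Member counts per 10000 gene counts (y axis) in the named class (left) and in the neurons it is set against (right), 1 point per sample with lines joining the points of a sample, and the mean with SD beside each column of 9 samples. Sst-positive neurons lie below the others in 8 of 9 samples, Nr2f2-positive neurons lie above in 8 of 9, and neurons above their sample's median RNA content lie above the rest in 9 of 9.

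The other classes differed less or in the other direction. Prkcd-positive neurons had 389.4 per 10000, against 391.6 in the other neurons, and were higher in 4 of 9 samples. Isl1-positive neurons had 403.3 ± 28.6 per 10000, against 388.8 ± 23.0 in the others, a difference of 14.5 ± 14.6 or 3.72% that was positive in 7 of 9 samples. Among neurons below their sample's median RNA content, only 2 samples had at least 3 Isl1-positive cells, 6 in these 2 samples. There the share was 323.6, against 365.7, higher in 1 of 2. Such cells of the other samples are not in this count. Nr2f2-positive neurons had 409.8 ± 33.0 per 10000, against 387.2 ± 22.1, a difference of 22.6 ± 20.3 or 5.84%, positive in 8 of 9. The difference for Nr2f2 was 34.9, 18.6 and 14.5 within the 3 animal numbers, and that for Isl1 20.4, 7.46 and 15.6. Each of these ranges overlapped that of its comparison neurons.

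By complex the differences were of unequal size, and they were not tested against each other. In Sst-positive neurons, relative to the others, the difference was -6.48% for complex I (lower in 9 of 9 samples), -12.4% for complex II, -7.64% for complex III and -9.86% for complex IV (each lower in 8 of 9). For complex V it was -2.04% with an SD of 4.19 percentage points (lower in 7 of 9). Nr2f2-positive neurons had 8.48% more complex I counts (higher in 9 of 9) and 7.71% more complex IV counts (8 of 9), but 2.43% more complex V counts with an SD that exceeded the difference (5 of 9). In Isl1-positive neurons complex IV was 6.0% higher (8 of 9) and complex I 2.49% higher with an SD of 4.87 percentage points (7 of 9).

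**Figure D2:**
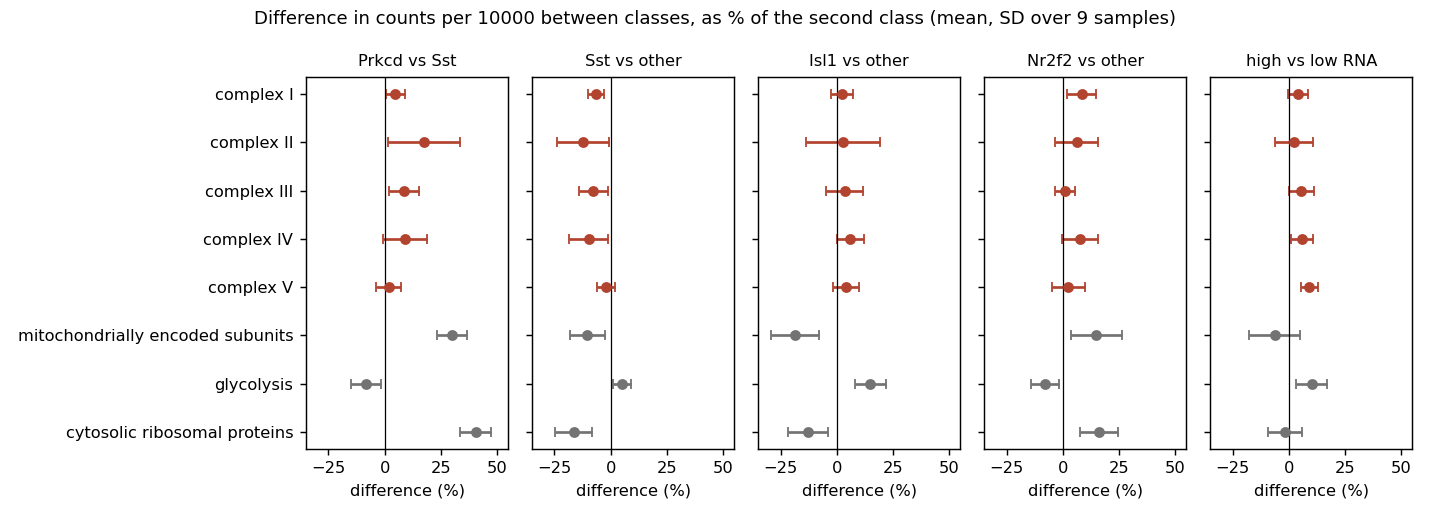
Difference in counts per 10000 between the first and second named class as a percent of the second (x axis; mean and SD over 9 samples), for each complex and for comparison gene lists (y axis), with 1 panel per class comparison. For Prkcd-positive against Sst-positive neurons the nuclear complexes lie between 1.88% and 17.6%, the mitochondrially encoded subunits at 30.2% and glycolysis at -8.17%.

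Single genes were compared on counts summed per sample and class, with edgeR's quasi-likelihood test, the sample as a block and Benjamini-Hochberg adjustment over all genes tested. A gene passed at an adjusted p under 0.05. Of the 94 members, 85 had enough counts to be tested in each comparison, and 9 had too few in any (Cox4i2, Cox6a2, Cox6b2, Cox7a1, Cox7b2, Cox8c, Ndufa4l2, Atp5g2 and Atp5l-ps1). A sum over a class cannot tell fewer expressing cells from less RNA per cell.

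Prkcd-positive, Sst-negative neurons (320, 28 to 45 per sample) were compared first with Sst-positive, Prkcd-negative neurons (125, 7 to 24 per sample). These 2 classes are often set against each other in work on the central amygdala. Of the inhibitory neurons, 23 were positive for both markers and entered neither class. Over these classes the members took 390.6 ± 27.9 and 369.0 ± 25.9 counts per 10000 (SD, n = 9), higher in Prkcd-positive neurons in 7 of 9 samples. Of the 85 members tested, 5 rose, where 4.38% of all 10398 genes did, and 1 fell, where 4.06% did (8.43% of genes in either direction), so their share was close to the background. At an unadjusted p under 0.05, 15 members were higher and 4 lower, where 12.2% and 8% of all genes were. The median log2 fold change was 0.05 over the members and 0.16 over all genes. Complex I had 3 of 36 members higher, complex II 1 of 4, complex IV 1 of 11 and complex V 1 of 14 lower, and 0 of 8 passed in complex III (2 at an unadjusted p under 0.05, and 0 by DESeq2).

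Ndufs4, an accessory subunit gene of the peripheral arm of complex I, which takes up the electrons, showed the largest fold change among the members that passed. It had a lowest, median and highest value of 292.9, 368.6 and 417.1 CPM in Prkcd-positive neurons, against 91.5, 232.7 and 292.3 CPM in Sst-positive neurons. Every Prkcd-positive sum lay above every Sst-positive one, if only just at the boundary. The log2 fold change was 0.68 ± 0.15 (SE; edgeR, Benjamini-Hochberg adjusted p = 0.01), higher in 9 of 9 samples, and it passed with any 1 sample left out. It did not pass without Mbp-positive cells, with equal cell numbers, with positive at 1 count or in neurons below their sample's median RNA content.

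Ndufa9, a further accessory subunit of that arm, had 156.7, 174.2 and 218.4 CPM (lowest, median, highest) in Prkcd-positive neurons, against 69.3, 133.6 and 150.9 CPM in Sst-positive neurons. The sums did not overlap, as with Ndufs4. The log2 fold change of Ndufa9 was 0.56 ± 0.14 (SE; edgeR, Benjamini-Hochberg adjusted p = 0.0258), higher in 9 of 9 samples. It no longer passed without sample 1, 2, 4 or 6.

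Cox6a1, the common form of a complex IV subunit, had 619.2, 846.2 and 1103 CPM in Prkcd-positive neurons, against 533.2, 615.4 and 743.6 CPM in Sst-positive neurons. Sdhb of complex II had 484.1, 533.0 and 625.5 CPM, against 278.8, 438.2 and 500.5 CPM, and Ndufb9 of complex I 1039, 1167 and 1353 CPM, against 788.8, 976.4 and 1119 CPM. In all 3 genes the classes overlapped, with most Prkcd-positive sums above most Sst-positive ones. The log2 fold change was 0.39 ± 0.10 for Cox6a1, 0.38 ± 0.10 for Sdhb and 0.30 ± 0.09 for Ndufb9 (SE; edgeR, Benjamini-Hochberg adjusted p = 0.0211, 0.0228 and 0.0399), higher in 9, 9 and 8 of 9 samples. Cox6a1 did not pass without sample 4, 5, 6 or 7, Sdhb without sample 1, 6 or 7, and Ndufb9 without any of samples 1 and 4 to 9.

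Atp5e, the epsilon subunit of complex V, moved the other way. It had 265.8, 322.0 and 513.4 CPM in Prkcd-positive neurons, against 286.6, 460.7 and 709.3 CPM in Sst-positive neurons, with wide overlap. Its log2 fold change was -0.39 ± 0.11 (SE; edgeR, Benjamini-Hochberg adjusted p = 0.0429), lower in 8 of 9 samples, and it passed only without sample 3 or sample 7. DESeq2 called 5 members higher and 3 lower, where it called 9.8% and 7.09% of all genes. Of the members higher, edgeR kept a count of 4 or 5 without sample 2, 3, 8 or 9, but of 2, 2, 3, 1 and 2 without sample 1, 4, 5, 6 or 7. The count of members lower was 0 without any of samples 1, 2, 4, 5, 6, 8 and 9.

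**Figure D3:**
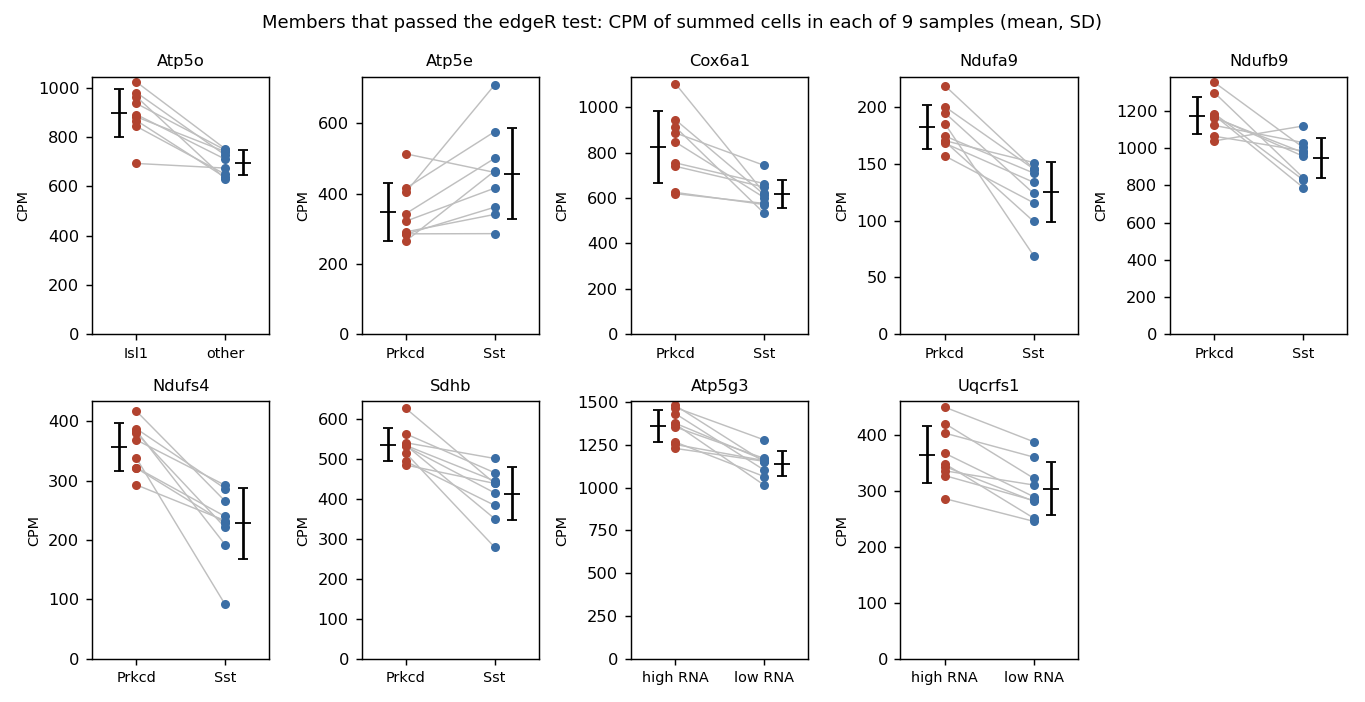
CPM of summed neurons (y axis, from 0) in each of 9 samples for the 9 tests of members that passed, with the class named first on the left of each panel and the mean with SD beside the points. Ndufs4 and Ndufa9 are the panels in which the values of the Prkcd-positive and Sst-positive classes do not overlap.

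Of the isoform genes with enough counts, only Cox6a1 passed in this comparison. Cox4i1 averaged 2687 ± 185 CPM in Prkcd-positive and 2528 ± 398 CPM in Sst-positive neurons (SD, n = 9), Cox8a 1081 ± 179 and 972 ± 232 CPM, and Ndufa4 1673 ± 222 and 1554 ± 187 CPM. Cox7a2 averaged 693.1 ± 91.5 and 699.0 ± 149 CPM, and Cox6b1 892.1 ± 145 and 772.4 ± 142 CPM. For Cox7a2 the 95% interval of the log2 difference was -0.16 to 0.15. Atp5g1 averaged 59.8 ± 9.04 and 53.7 ± 13.3 CPM and Atp5g3 1135 ± 116 and 1292 ± 169 CPM. For 77 of the 85 members the 95% interval of the fold change lay within 2-fold in both directions, so a larger difference fell outside the interval for these.

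Genes that act beside these subunits were read in the same fit, from lists written for this purpose. Of 7 mitochondrially encoded subunit genes tested, 5 were higher in Prkcd-positive neurons. The gene mt-Cytb, cytochrome b of complex III, had 19950, 21680 and 23910 CPM (lowest, median, highest), against 12960, 16720 and 19700 CPM in Sst-positive neurons, without overlap. Its log2 fold change was 0.40 ± 0.04 (SE; edgeR, Benjamini-Hochberg adjusted p = 1.8e-05), and that of mt-Co1, a core subunit gene of complex IV, 0.42 ± 0.08. Glycolysis had 5 of 18 genes lower, among them Pfkp, a phosphofructokinase (log2 fold change -1.38 ± 0.18), and Aldoc, an aldolase (-3.59 ± 0.79), and 0 higher. Ppargc1a, a coactivator of mitochondrial gene transcription, was the 1 of 12 regulators that passed, with 47.3, 70.5 and 108.7 CPM in Prkcd-positive neurons, against 7.89, 24.9 and 73.2 CPM in Sst-positive neurons and a log2 fold change of 1.55 ± 0.37 (edgeR, adjusted p = 0.0167).

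Of the other lists in this comparison, Slc25a4, the ADP and ATP carrier, was the 1 of 13 carriers to rise (log2 fold change 0.22 ± 0.05), and Sod2 and Prdx5, which remove superoxide and peroxides, were the 2 of 9 antioxidant genes (0.63 ± 0.15 and 0.46 ± 0.09). Of 96 cytosolic ribosomal protein genes 24 rose and 0 fell, with Rpl13 at 1.01 ± 0.30 and Rps19 at 0.83 ± 0.12 (log2 fold change, SE). That list was taken by a symbol rule that also accepts pseudogene symbols. Near-identical copies were not looked for in it, so its counts of genes are uncertain here and below. Rpl13 did not pass with any 1 of the 9 samples left out, nor did Slc25a4 without sample 1 or 5. Of 23 respiratory chain assembly factors and 3 further ATP synthase parts, 0 passed edgeR's test, 3 were higher and 0 lower at an unadjusted p under 0.05, and DESeq2 called 2 higher. Oligodendrocyte markers summed to 1.28 to 2.36 per 10000 in the Prkcd-positive and 0.356 to 1.73 in the Sst-positive neurons, and 151 of 320 and 45 of 125 neurons were positive for at least 1 of the 6 genes. With neurons positive for Mbp left out, 0 members passed upward and 1, Ndufc1, passed downward. The members' share was then 394.5 per 10000 in 202 Prkcd-positive and 372.5 in 83 Sst-positive neurons of 8 samples, a difference of 21.97 ± 21.37 (SD; higher in 6 of 8), against 21.59 ± 18.9 in 9 samples with all neurons. The interneuron markers summed to 0.0658 to 0.452 in Prkcd-positive and 0.0173 to 36.1 in Sst-positive neurons.

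**Figure D4:**
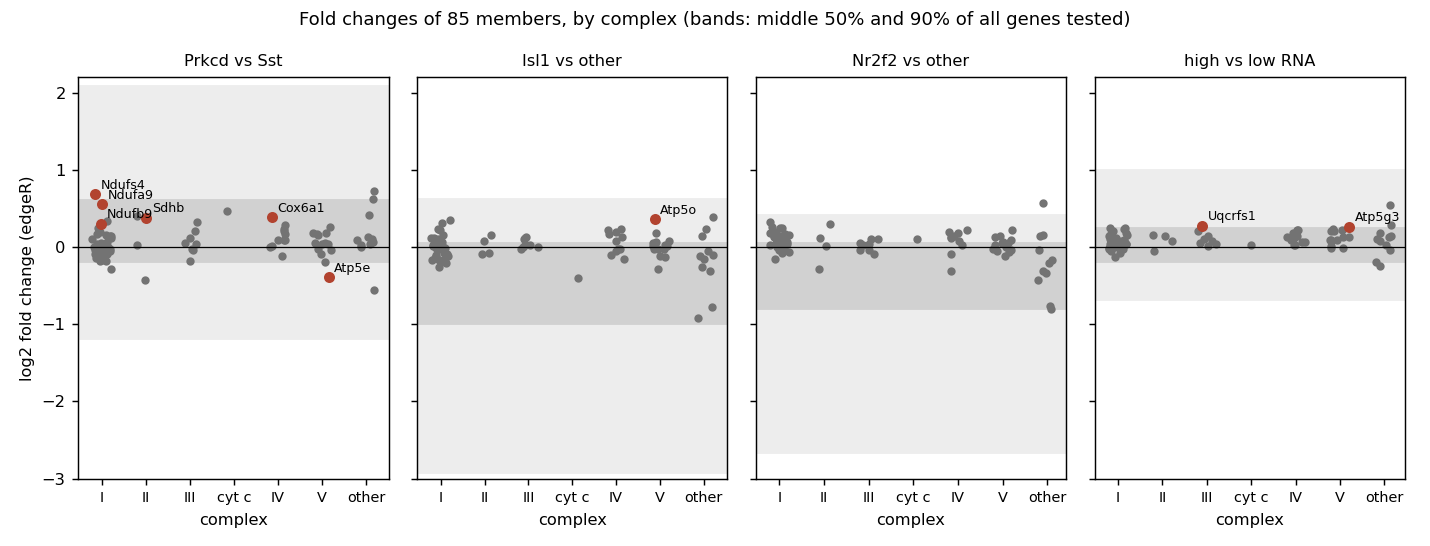
Log2 fold change of each of the 85 members tested (y axis; 1 point per gene, by complex on the x axis, filled where the gene passed) in each of 4 comparisons, over bands that hold the middle 50% and 90% of all genes tested. The members lie close to 0 in each panel, with a median absolute log2 fold change of 0.119, 0.109, 0.11 and 0.0892, against 0.412, 0.47, 0.346 and 0.216 over all genes.

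Fold changes of genes with few counts scatter more, and member and other genes were not matched for counts, so the narrower spread in the plot of fold changes by complex is a description. The median over all genes also went with the sizes of the classes. It was 0.16 for Prkcd against Sst (320 and 125 neurons), 0.02 above against below the median RNA content (403 and 407), and below 0 for Isl1 and Nr2f2. It can therefore not be taken as a neutral level for the members, nor can the shares at an unadjusted p. Class size, cell type and RNA content differ together, and why the median shifts was not tested. In Isl1-positive neurons (76, 6 to 17 per sample) against the others (734), 1 of 85 members rose, where 1.7% of 11169 genes did, and 0 fell, where 3.15% did (4.85% in either direction). At an unadjusted p under 0.05 the counts were 9 and 0, where 4.93% and 15.3% of all genes were higher and lower. DESeq2 called 9 higher and 0 lower, where it called 4.45% and 13.4% of all genes. The members' median log2 fold change was -0.00078, and 0.05 with median-of-ratios scaling, against -0.34 and -0.28 over all genes, so its sign depends on the scaling. Here too the rise of 1 member is close to the background.

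That member was Atp5o, which encodes the subunit that ties the catalytic head of ATP synthase to its peripheral stalk. It had 692.9, 891.2 and 1023 CPM (lowest, median, highest) in Isl1-positive neurons, against 630.3, 710.3 and 752.3 CPM in the others. Most Isl1-positive sums lay above the whole range of the others, with overlap at the low end. The log2 fold change was 0.36 ± 0.07 (SE; edgeR, Benjamini-Hochberg adjusted p = 0.00948), higher in 9 of 9 samples, and it passed with any 1 sample left out. With 10 or more neurons required per class and sample, which left 2 samples, it did not pass, nor did it with equal cell numbers, with a threshold of 3 per 10000 or in neurons above their sample's median RNA content. Without sample 7, 2 members rose. Cox4i1 averaged 2931 ± 289 CPM in Isl1-positive neurons and 2679 ± 161 CPM in the others (SD, n = 9), Cox7a2 847 ± 182 and 724 ± 118 CPM, and Cox6a1 644 ± 106 and 715 ± 80 CPM, and none of these passed. For Atp5g3 the means were 1422 ± 199 and 1247 ± 50.4 CPM.

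The mitochondrially encoded genes, mostly mt-Cytb by counts, had a lower summed share in Isl1-positive neurons. They took 229.4 ± 39.2 counts per 10000, against 281.8 ± 31.7 in the other neurons (SD, n = 9), lower in 9 of 9 samples. The nuclear members took more in 7 of 9. By single gene, all 7 mitochondrially encoded genes tested had a log2 fold change below 0. Of the nuclear members, 42 lay above 0 and 43 below. Of 7 tested, mt-Cytb fell, with 11470, 15700 and 19790 CPM, against 15650, 19310 and 21540 CPM, and a log2 fold change of -0.30 ± 0.06 (SE; edgeR, Benjamini-Hochberg adjusted p = 0.0113). Glycolysis had 3 of 18 genes higher and 0 lower, with Aldoc at 1.73 ± 0.26 and Pfkp at 0.80 ± 0.16, 2 genes also named above for the Prkcd-positive and Sst-positive neurons. Ckmt1, the creatine kinase of mitochondria, was the 1 of 13 carriers and channels that rose (0.74 ± 0.10), with 527.7 to 933.9 CPM, against 336.4 to 480.1 CPM and no overlap. Of 101 ribosomal protein genes 3 fell, among them Rplp0 (-0.69 ± 0.12) and Rplp1 (-0.37 ± 0.10), and none rose. Rplp1 passed without sample 2 but with no other sample left out. Of 65 genes tested in the citrate cycle, regulator, antioxidant, assembly factor and further ATP synthase lists, 0 passed edgeR's test. At an unadjusted p under 0.05, 0 of them were higher and 5 lower, and DESeq2 called 1 higher and 3 lower.

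Nr2f2-positive neurons (116, 7 to 17 per sample) were set against the other 694. Of the 85 members 0 rose and 0 fell by edgeR's test, where 0.409% and 1.28% of 11008 genes did (1.69% in either direction). At an unadjusted p under 0.05, 9 were higher and 1 lower, where 2.78% and 11.1% of all genes were. DESeq2 called 1.58% of all genes higher and 8% lower, and of the members 0 lower and 3 higher, Atp5d, Cox8a and Ndufb6, an accessory subunit gene of complex I. These 3 are named after their values were seen. Cox8a averaged 1271 ± 233 CPM in Nr2f2-positive neurons, against 1112 ± 165 CPM in the others (SD, n = 9), Cox6b1 959 ± 198 and 843 ± 101 CPM, and Ndufa4 1777 ± 208 and 1632 ± 150 CPM. Of the 36 complex I genes 31 had a log2 fold change above 0, and the median was 0.08, against -0.24 over all genes tested. The median over all genes was below 0 here, as for Isl1, for reasons not tested, so it cannot be taken as a neutral level for complex I. The members' median was 0.06 as tested and 0.09 with median-of-ratios scaling.

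The complex I share was 159.5 ± 15.8 per 10000 in Nr2f2-positive neurons, against 147.0 ± 8.78 in the others (SD, n = 9), with sample values of 132.9 to 182.3 and 132.4 to 157.8. It was higher in every sample, though the ranges overlapped and no single complex I gene passed. The mitochondrially encoded genes took 311.5 ± 41.4 per 10000, against 271.1 ± 31.2, higher in 8 of 9, and mt-Nd1, a core subunit of complex I encoded in mitochondrial DNA, rose by 0.26 ± 0.06 (log2, SE; edgeR, Benjamini-Hochberg adjusted p = 0.0359). Slc25a4 rose by 0.26 ± 0.05 (adjusted p = 0.0212), with 2789 to 3706 CPM, against 2235 to 2754 CPM and no overlap. Eno2, the enolase typical of neurons, fell, at -0.42 ± 0.09 (adjusted p = 0.0359). The call was lost for mt-Nd1 without any 1 of samples 1, 3, 4, 5, 6, 7 and 8, for Eno2 without any 1 of samples 1, 2, 3, 4, 6, 7 and 8, and for Slc25a4 without sample 2, 6 or 7. Ribosomal protein genes took 16.1% more counts per 10000 (higher in 9 of 9 samples), a larger difference than the 8.48% of complex I. Of 100 tested, 72 had a log2 fold change above 0 and 28 below, and the 1 that passed was lower. Of the 65 genes of the other lists 0 passed edgeR's test. At an unadjusted p under 0.05, 3 of these were higher and 1 lower, and DESeq2 called 1 lower. The 3 mural cell genes summed to at most 26.1 per 10000 in a single Nr2f2-positive sum, where the median sample had 0, against at most 0.0423 in the other neurons, and their part in these values was not tested.

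Gene counts per ERCC count, the ratio of a cell's counted RNA to the spike-in RNA, served as a relative measure of RNA content. Isl1-positive neurons had 9.72 ± 2.64 gene counts per ERCC count, against 6.90 ± 1.13 in the other neurons (SD over 9 samples of the sample medians). The ratio was 1.38-fold higher, at a log2 difference of 0.46 ± 0.22 (SD), in 9 of 9 samples. The exact two-sided sign-flip permutation p was 0.00391, the smallest that 9 samples allow, and 0.0117 adjusted over 3 comparisons. With the mean in place of the median over cells the log2 difference was 0.31 (exact permutation p = 0.0469), which adjustment over the 3 comparisons does not leave under 0.05. Nr2f2-positive neurons had 6.49, against 7.16, a log2 difference of -0.13 ± 0.18, higher in 2 of 9 (exact permutation p = 0.0312, adjusted 0.0469). Even before adjustment, the exact permutation p was no longer under 0.05 without any 1 of samples 1, 2, 3, 4, 6 and 8 (0.0547 to 0.0625). Without sample 7 it was 0.0469 before adjustment, which adjustment over the 3 comparisons does not leave under 0.05. Prkcd-positive and Sst-positive neurons had 6.83 and 7.05 (log2 difference -0.04 ± 0.10, exact permutation p = 0.234), and the sign of that difference turned with the mean in place of the median over cells. Per ERCC count rather than per gene count, the members of Isl1-positive neurons were higher by 0.51 ± 0.34 on the log2 scale, in 9 of 9 samples.

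The neurons of each sample were then divided at its own median of that ratio, which gave 403 above and 407 at or below it. The members took 401.4 ± 25.9 counts per 10000 above the median, against 379.4 ± 22.4 below it (SD, n = 9), higher in 9 of 9 samples. Complex V had 95.8 ± 4.08, against 87.94 ± 3.9, which is 8.98% more, and complexes I, III and IV had 4.11%, 5.52% and 5.88% more. Complex V was higher in 9 of 9 samples, as were complexes III and IV, and complex I in 8. Glycolysis had 78.5 ± 4.36, against 71.2 ± 3.74, higher in 8 of 9, and the mitochondrially encoded genes 267.7 ± 21.96, against 285.6 ± 42.9, higher in 4 of 9. Within the 3 date fields the difference for the mitochondrially encoded genes was -53.3, -8.78 and 8.36 per 10000, so the lower mean came mostly from the first. Gene counts are the numerator of the ratio and the denominator of the share, so a neuron that by chance gave many counts enters both.

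In edgeR's test of this division 2 of 85 members rose, where 0.713% of 11639 genes did, and 0 fell, where 0.326% did (1.04% in either direction). At an unadjusted p under 0.05, 21 members were higher and 0 lower, where 7.72% and 5.07% of all genes were. Of the 85 members, 72 had a log2 fold change above 0, with a median of 0.08 over the members and 0.02 over all genes. Atp5g3 had 1229, 1371 and 1480 CPM (lowest, median, highest) above the median, against 1015, 1154 and 1279 CPM below it, with a small overlap. Its log2 fold change was 0.26 ± 0.05 (SE; edgeR, Benjamini-Hochberg adjusted p = 0.0134), higher in 9 of 9 samples and passing with any 1 sample left out, but with an adjusted p of 0.0802 on thinned counts. Uqcrfs1 had 286.8, 349.1 and 450.5 CPM, against 246.2, 290.3 and 388.7 CPM, with wide overlap between samples. Its log2 fold change was 0.28 ± 0.06 (adjusted p = 0.0458), higher in 9 of 9, and with any sample other than sample 8 left out it did not pass, which left 1 member. DESeq2 called 8 members higher and 0 lower, where it called 3.28% and 1.62% of all genes.

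Of the other lists, Ckmt1 rose by 0.56 ± 0.08 (log2, SE; edgeR, Benjamini-Hochberg adjusted p = 0.00537), with 412.1 to 568.7 CPM above the median, against 283.5 to 383.6 CPM below it and no overlap. Mdh1, the cytosolic malate dehydrogenase, rose by 0.20 ± 0.04 and Aldoc by 2.50 ± 0.46, and mt-Nd4, a complex I subunit encoded in mitochondrial DNA, fell, at -0.21 ± 0.05. Mdh1 did not pass with any 1 of the 9 samples left out, mt-Nd4 without any 1 of samples 1 to 7, and Aldoc without sample 1, 2, 3 or 4. In the regulator, antioxidant, assembly factor and further ATP synthase lists 0 of 48 genes passed edgeR's test, with 2 higher and 1 lower at an unadjusted p under 0.05 and 0 by DESeq2. Cox7a2 averaged 771 ± 126 CPM above the median and 684 ± 112 CPM below it (SD, n = 9), and Cox4i1 2789 ± 165 and 2604 ± 219 CPM, and neither passed.

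Across single neurons the same relation was weak to moderate. The Spearman correlation between gene counts per ERCC count and the members' share, computed within each sample over 810 neurons in all, had a median of 0.216 and a range of 0.13 to 0.497 over the 9 samples. For complex V the median was 0.312 and the range 0.0804 to 0.386. Complexes I, III and IV had medians of 0.156, 0.148 and 0.166, and complex II 0.0685. The mitochondrially encoded genes had a median of -0.116 and ribosomal protein genes -0.055, while glycolysis had 0.349, the carriers 0.249 and the citrate cycle 0.25. With counts thinned to 50000 (788 neurons) the medians were 0.236 for all members and 0.297 for complex V. These are descriptions, since the neurons of a sample share a library and the gene counts enter both axes.

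**Figure D5:**
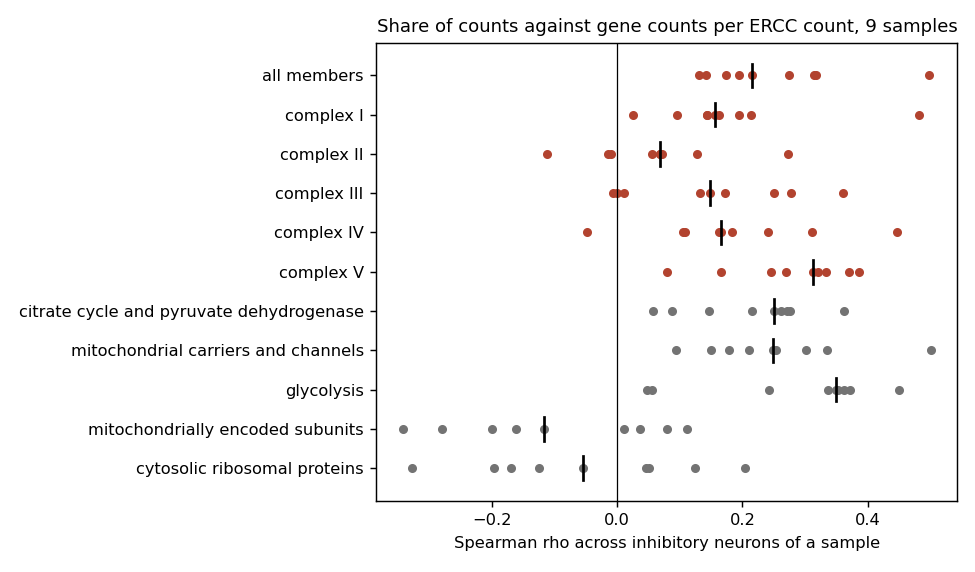
Spearman rho between counts per 10000 and gene counts per ERCC count across the inhibitory neurons of a sample (x axis), 1 point per sample and a bar at the median, for the complexes and comparison lists (y axis). Complex V lies above 0 in 9 of 9 samples with a median of 0.312, and the mitochondrially encoded subunits lie on both sides of 0 with a median of -0.116.

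Neurons with a high share of one large complex tended to have a high share of the others. After thinning to 50000 counts (788 neurons), the within-sample Spearman correlation between complexes I and IV had a median of 0.508 over samples, with a range of 0.324 to 0.624. It was 0.423 between complexes I and V and 0.413 between IV and V, and smaller with the complexes that hold fewer counts, at 0.213 between I and III and 0.159 between I and II. The members' share correlated at a median of 0.398 with the carriers, 0.294 with the citrate cycle, 0.215 with ribosomal proteins, 0.151 with the mitochondrially encoded subunits and 0.127 with glycolysis. The shares of a neuron have 1 denominator and come from 1 library, and no p is given.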

How the data were processed

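Single-cell RNA-seq counts of 829 cells in 9 samples were read from the table the authors deposited, which holds raw counts per gene symbol and cell, and from their table of animal numbers and date fields. Genome build NCBIM37 and the tool Seurat are named, per the submitters' processing notes. Of the aligner, annotation, strand, handling of multi-mapping reads and molecular identifiers nothing is given in these sources. Counting intervals therefore cover counting error only. ERCC rows were left out of gene counts. No cell was removed for low counts (9 of the 810 inhibitory neurons had under 20000, the lowest 401) and no doublet caller was run.

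Counts were summed per sample and class (at least 5 cells each) and tested with edgeR 4.0.16 (TMM, filterByExpr, quasi-likelihood, sample as a block) in R 4.3.3, with limma 3.58.1 loaded, and Benjamini-Hochberg adjustment over all genes. Classes come from the same samples, which is the reason for the block. RNA content was tested by exact sign-flip permutation over samples. Members, lists and tests were chosen with earlier results of these data known. The genes named per comparison are up to 12 passing members a side with a mean of at least 10 CPM, the isoform genes whatever their result, and up to 2 passing genes of each other list. Some genes that met this rule are not reported here. For levels, they are the 3 members of each complex with the highest mean CPM and a set of core subunits. The other lists hold mitochondrially encoded subunits (13 genes, 5 not used here), other ATP synthase parts (3), respiratory chain assembly factors (32, 8 not used), citrate cycle (20, 1 not used), carriers and channels (16, 3 not used), regulators (15, 1 not used), glycolysis (19), antioxidant genes (11, 1 not used) and 240 cytosolic ribosomal protein symbols, and markers of other cell types.

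Alternatives were DESeq2 1.42.0, edgeR with median-of-ratios scaling, with no filter on low counts or with no replicate block, counts thinned to 50000 (seed 7), at least 10 cells, all cells, no cells under 20000 counts, no Mbp-positive cells, equal cell numbers, other thresholds for positive cells, RNA content strata and each sample left out. In simulated sums edgeR recovered 22% of 2-fold and 49% of 4-fold changes for Prkcd against Sst, 24% and 54% for Isl1, 19% and 58% for Nr2f2, and 44% and 77% for the split by RNA content, with at most 3 false calls each. The changed genes were drawn from all genes tested, and the samples differed in library size alone. These percentages are therefore not those of the members. Copies were sought with BLAST 2.17.0 against GENCODE M21 transcripts, and motifs in RefSeq promoter windows of GRCm38.p6 on both strands, where a window counted once per motif. Figures and sums were made in Python 3.11.15 with matplotlib 3.10.9, scipy 1.17.1, pandas 2.3.3 and numpy 2.4.6.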

Additional observations from a re-analysis of the deposited data

Results flagged for a closer look

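In 168 groups of 9 sample values, 13 held a highest or lowest sample that stood apart by Dixon's criterion (a gap of over 0.493 of the range), and chance alone gives about 1 in 20. None of these was tested for a cause.

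Replicate 9, which had 9 Sst-positive neurons, the fewest of any sample, held 5 of them. Its difference between Sst-positive and other neurons was 1.8 counts per 10000 for complex II, where the other samples had -2.91 to -1.12. For glycolysis it was 11.02, where the others had 1.12 to 5.01, and for cytosolic ribosomal proteins 1.84, where the others had -33.3 to -15.9. Between Prkcd-positive and Sst-positive neurons its difference for the assembly and other genes was -3.17, where the others had -0.316 to 1.98. Between Prkcd-positive and other neurons its difference for the respiratory chain assembly factors was -2.05, where the others had 0.396 to 1.78.

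Replicate 1 had 14.8 counts per 10000 of respiratory chain assembly factors, where the other samples had 12.9 to 13.9. Its complex IV difference between Nr2f2-positive and other neurons was 26.1 per 10000, where the others had -2.30 to 9.39. In replicate 3 the log2 difference in gene counts per ERCC count was -0.55 between Nr2f2-positive and other neurons, where the others had -0.22 to 0.05, and 0.66 between neurons above and below the median, where the others had 0.38 to 0.51. In replicate 4 the complex I difference between neurons above and below the median RNA content was 21.03 per 10000, where the others had -0.148 to 8.45, and the rank correlation of complex I with RNA content was 0.481, where the others had 0.0256 to 0.213. The cytochrome c difference between Isl1-positive and other neurons was 0.271 per 10000 in replicate 5, where the others had -0.205 to 0.0204. Ndufs4 had 91.5 CPM in the Sst-positive neurons of replicate 7, where the other samples had 192.3 to 292.3 CPM.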

How the results depend on the processing

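How many members passed moved with the choice of cells, the tool and the scaling. For Prkcd-positive against Sst-positive neurons (5 higher, 1 lower), the count higher was 0 without Mbp-positive cells, 1 with equal cell numbers, 0 with positive at 1 count, 9 with positive at 3 per 10000, and 1 and 0 in the neurons above and below their sample's median RNA content. The count lower was 3 with DESeq2 and 0 with no filter, with no replicate block, with at least 10 cells, with equal cell numbers, at both other thresholds and in both RNA strata. The counts with 1 sample left out ran from 1 to 5 and from 0 to 1. For Isl1 (1 higher), the count was 4 with median-of-ratios scaling, 9 with DESeq2, 2 with thinned counts, 2 with all cells, 6 with positive at 1 count, and 0 with at least 10 cells, equal cell numbers, positive at 3 per 10000 or only neurons above the median RNA content; without 1 sample it was 1 to 2. For Nr2f2 (0 higher), DESeq2 gave 3. For the split by RNA content (2 higher), the count was 1 with median-of-ratios scaling, no filter or no Mbp-positive cells, 8 with DESeq2, 0 with thinned counts, 4 between the neurons highest and lowest in RNA content, with the middle of each sample left out, and 1 to 2 without 1 sample. With no replicate block it was 1, and without that pairing by sample the other counts of members higher were within 1.5 times. Strata and equal numbers use fewer cells by construction, and for the other settings the cause was not tested.

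None of the genes that passed changed sign in the alternatives run, and of their 734 values 500 stayed on their side of the threshold and 234 no longer passed. RNA content of Prkcd-positive against Sst-positive neurons (log2 difference -0.04) was 0.0245 with the mean over cells, and -0.06 to -0.02 without 1 sample. That of Isl1 (0.46) was 0.31 with the mean over cells (exact permutation p = 0.0469 before adjustment), 0.53 with positive at 3 per 10000 and 0.59 with at least 10 cells, each from 2 samples, where the exact permutation p cannot fall below 0.5, and 0.43 to 0.50 without 1 sample. For Nr2f2 (-0.13) the exact permutation p before adjustment was 0.0508 with all cells (-0.12) and 0.0625 with at least 10 cells (-0.13). It was 0.0508 with the mean over cells (-0.12). The log2 difference was -0.151 to -0.0763 without 1 sample. Isl1-positive neurons below the median RNA content could not be tested gene by gene, since too few samples had 5 such cells.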
